A study of Mus musculus with 12 samples.

Results

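Expression of 9 genes that mark bile duct epithelium or the fetal liver was followed through 12 mouse liver arrays. They are the duct keratins Krt7 and Krt19, the surface proteins Epcam and Cd24a, the transcription factor Sox9, the chloride channel Cftr, and the fetal products Afp, Gpc3 and Igf2. A gene was taken from the probe sets that the platform annotation ties to 1 symbol, and where there were several the probe set with the highest mean over the 12 arrays stood for it. All 9 were found, among 22180 genes measured in this way, and 1 of them, Cd24a, had 2 probe sets.

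The livers came from male mice in 4 groups of 3, with 1 array per numbered biological replicate. Lats2-CKO mice and wild-type mice were placed, at 8 weeks of age, on a Paigen-type high-cholesterol diet with 1.25% cholesterol or on a cholesterol-free chow (normal diet), and the feeding lasted 9 weeks. The groups were thus Lats2-CKO on high cholesterol, Lats2-CKO on normal diet, wild type on high cholesterol and wild type on normal diet. The labels also call the mutants Lats2-KO, and name neither the deleted part of the gene nor the cells or the Cre in which it was deleted. Values are log2 expression after RMA, so that a difference of 1 is a doubling.

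Hepatocytes and the cholangiocytes that line bile ducts descend from a common fetal precursor, the hepatoblast. Cholangiocytes keep Krt7, Krt19, Epcam and Sox9, and duct-like cells with these proteins multiply around the portal tracts in many liver injuries, which pathologists call a ductular reaction. Afp, Igf2 and Gpc3 are abundant in the fetal liver, are silenced after birth and can return in regeneration and in liver tumours. Lats2 is a kinase of the Hippo pathway that restrains the coactivator YAP, and in mice YAP activity in hepatocytes is known to favour duct-like features, Sox9 among them.

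The 12 arrays correlated with each other at 0.967 to 0.995 over all genes, and no pair was identical. Hepatocyte markers other than Ass1 were high throughout, and the list mean was 11.5 to 11.7 over 10 genes on every array. Ass1 read low, at 3.89 to 6.02 over the 12 arrays. Lats2 read 4.37 to 4.99 on the 6 Lats2-CKO arrays and 5.12 to 5.97 on the 6 wild-type arrays. That difference, -0.72 ± 0.16 (SE, 6 arrays against 6), kept the genotypes apart, as was found for 0.23% of genes, but its limma adjusted p was 0.486, above the threshold of 0.05 used throughout. The probe set was not placed against the deleted part. By their medians the arrays formed a higher and a lower set of 6. Both normal-diet groups had 2 higher arrays and 1 lower array, and both high-cholesterol groups had 1 higher and 2 lower. Array set was thus partly mixed with diet in every diet difference, whereas the genotypes were balanced for it. The sets go with the replicate numbers, as all 4 arrays numbered 1 were in the higher and all 4 numbered 3 in the lower. Array 3 of the wild-type normal-diet group stood apart. Over genes above background it correlated at 0.952 to 0.956 with the other arrays of its group and at 0.961 to 0.985 with the 6 high-cholesterol arrays. Its label could not be checked here, which bears on every wild-type diet difference. The calls on list genes that are gained without it are therefore also given. They are no independent support, since the array was set apart by its likeness to the high-cholesterol arrays, Krt23 and Lpl included. In Lats2-CKO livers leaving it out changes the spread, which all 4 groups share, and not the difference.

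Of the 9 genes, 6 stayed near the array's background in all 4 groups. Background was set by 1105 olfactory receptor genes, which the liver is not expected to use, and a gene was called near background where every group mean lay under the 95th percentile of their means, a log2 level of 3.88. Of all genes, 12947 had a mean below that limit, or 58.4%. Krt7, Krt19, Cftr, Afp, Gpc3 and Igf2 lay under it in every group. The single array above it among these 6 genes was wild-type normal-diet array 2 for Krt19, at 3.93. Sox9, Epcam and Cd24a had group means above the limit in all 4 groups, and Sox9 did so on all 12 arrays, Cd24a on 10 and Epcam on 9. In whole-liver RNA, fewer cells of a type and less RNA per cell cannot be told apart.

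**Figure D1:**
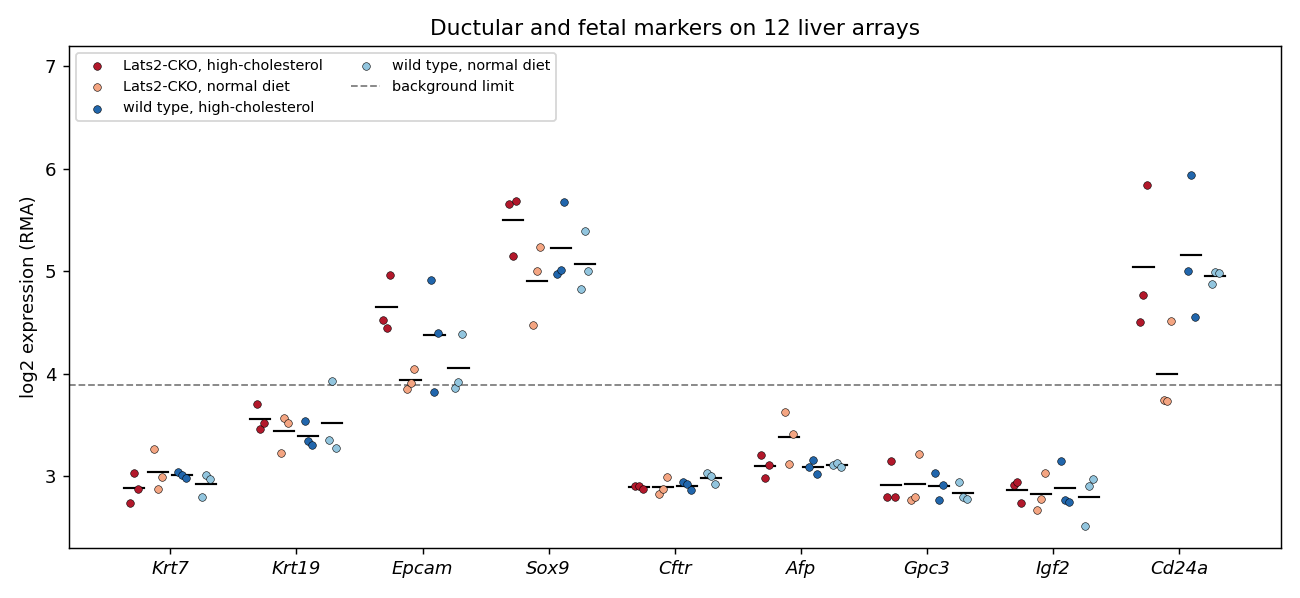
Log2 expression of the 9 genes (x axis) on each of the 12 arrays (points), with group means (bars) in the order Lats2-CKO high-cholesterol, Lats2-CKO normal diet, wild-type high-cholesterol and wild-type normal diet. The dashed line is the background limit of 3.88. Sox9, Epcam and Cd24a lie mostly above it and the 6 other genes below it.

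RefSeq's promoter table (GRCm38.p6, 250 bases before to 50 after the annotated start) held 6 of the 9 genes. Epcam and Afp are shown because they stand for the contrast in level, Epcam measured above background in every group and Afp in none. The first lies on the plus strand at chr17:87635729-87636028 and the second on the plus strand at chr5:90490464-90490763. Capitals mark matches on either strand to any of 4 motifs. The core bound by TEAD, the DNA partner of YAP, was searched as GGAATG. A half-site of the hepatocyte factor HNF1 was searched as GTTAAT. The TATA box was searched as TATAAA and the E-box as CACGTG.
Epcam: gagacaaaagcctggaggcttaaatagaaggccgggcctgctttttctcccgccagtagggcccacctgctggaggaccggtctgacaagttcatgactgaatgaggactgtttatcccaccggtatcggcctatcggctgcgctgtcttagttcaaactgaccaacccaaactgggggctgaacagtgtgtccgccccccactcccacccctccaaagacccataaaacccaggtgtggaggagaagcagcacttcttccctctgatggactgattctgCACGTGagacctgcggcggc
Afp: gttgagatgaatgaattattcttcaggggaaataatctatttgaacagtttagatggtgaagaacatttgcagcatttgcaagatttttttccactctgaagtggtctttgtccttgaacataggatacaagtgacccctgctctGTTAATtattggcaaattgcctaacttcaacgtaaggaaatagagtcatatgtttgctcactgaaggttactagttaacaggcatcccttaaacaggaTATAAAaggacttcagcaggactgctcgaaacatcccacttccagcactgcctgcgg
The Afp window held 1 match to the HNF1 half-site and 1 to the TATA box, and the Epcam window 1 to the E-box, as a description of these letters only. Of all 32851 promoter windows in the table, 7.10% held the HNF1 half-site, 13.6% the TATA box, 7.15% the E-box and 14.7% the TEAD core. The TEAD core was in neither window shown, and among the 6 genes in the table it was found for Igf2, in 3 of its 4 annotated windows. The Afp window contained 3 CG pairs and the Epcam window 11, against a median of 7 over all windows.

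Among the near-background genes, the groups of both keratins and of the channel overlapped in every diet and genotype contrast. Krt7, a type II keratin of simple epithelia, read 2.74 to 3.03 in Lats2-CKO high-cholesterol livers, 2.87 to 3.26 in Lats2-CKO normal-diet livers, 2.98 to 3.04 in wild-type high-cholesterol livers and 2.80 to 3.01 in wild-type normal-diet livers. Krt19, its usual type I partner in ducts, averaged 3.56 ± 0.13, 3.44 ± 0.18, 3.39 ± 0.13 and 3.52 ± 0.36 in the same order (SD, n = 3 each). Cftr, which moves chloride into bile, varied least of the 9 genes, between 2.82 and 3.03 over all arrays.

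The fetal genes gave small differences, those of Afp being the largest. Afp, the fetal counterpart of albumin in plasma, read 3.21, 2.98 and 3.11 in mutant livers under high cholesterol, against 3.62, 3.11 and 3.41 in mutants under normal diet. In wild type the values were 3.09, 3.16 and 3.02 under high cholesterol, against 3.11, 3.13 and 3.09 under normal diet. The Lats2-CKO normal-diet mean, 3.38 ± 0.26, was the highest of the 4 and rested on arrays 1 and 3, while the Lats2-CKO high-cholesterol, wild-type high-cholesterol and wild-type normal-diet means, 3.10, 3.09 and 3.11, were almost the same. Afp differed by 0.28 ± 0.12 between Lats2-CKO and wild-type livers on normal diet (limma adjusted p = 0.539) and by -0.28 ± 0.12 between diets in Lats2-CKO livers (limma adjusted p = 0.340), SE, 3 arrays against 3. Even its highest array lay under the background limit.

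Gpc3, a heparan sulfate proteoglycan of the cell surface, stayed between 2.76 and 3.22, and Igf2, the fetal growth factor, between 2.51 and 3.15. Their group means spanned 2.84 to 2.92 for Gpc3 and 2.79 to 2.88 for Igf2, within the spread of the replicates. Over the 6 near-background genes and 7 contrasts, 42 differences ran from -0.28 to 0.28, and 0 of them passed the threshold in limma (2 had an unadjusted p below 0.05, both of Afp).

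Sox9 was above the background limit on every array. It encodes a transcription factor of cholangiocytes and of periportal progenitor-like hepatocytes. It read 5.66, 5.15 and 5.69 in Lats2-CKO livers given high cholesterol and 4.47, 5.0 and 5.23 in those given normal diet. Wild-type livers read 4.98, 5.01 and 5.68 with high cholesterol and 4.82, 5.39 and 5.0 with normal diet. Its group means were 5.50 ± 0.30 in Lats2-CKO high-cholesterol livers, 4.90 ± 0.39 in Lats2-CKO normal-diet livers, 5.22 ± 0.40 in wild-type high-cholesterol livers and 5.07 ± 0.29 in wild-type normal-diet livers. In order of the means, Lats2-CKO high cholesterol came first and Lats2-CKO normal diet last, and each pair of groups overlapped on single arrays.

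Epcam, an adhesion molecule of epithelia and of bile ducts, was the 1 gene of the 9 whose Lats2-CKO arrays separated by diet. The arrays gave 4.53, 4.45 and 4.96 in Lats2-CKO high-cholesterol livers, against 3.85, 3.91 and 4.04 in Lats2-CKO normal-diet livers. In wild type they gave 4.92, 3.82 and 4.40 on high cholesterol, against 3.86, 3.92 and 4.38 on normal diet. All 3 mutant high-cholesterol values thus lay above all 3 mutant normal-diet values, whereas the wild-type groups overlapped, with array 2 on high cholesterol the lowest of all 12. The 3 arrays under the background limit were 1 each from the Lats2-CKO normal-diet, wild-type high-cholesterol and wild-type normal-diet groups. Groups that do not overlap in this contrast were found for 19.5% of all genes.

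Cd24a, a small glycoprotein carried by biliary progenitor-like cells and also by B cells, neutrophils and red cell precursors, varied most. It read 4.50, 4.77 and 5.85 in mutant livers under high cholesterol, against 3.74, 3.74 and 4.51 in mutants under normal diet. In wild type the values were 5.0, 5.94 and 4.55 under high cholesterol, against 4.87, 4.99 and 4.99 under normal diet. The Lats2-CKO normal-diet livers were the low group, at 4.0 ± 0.45, while the other means were 5.04 ± 0.71, 5.16 ± 0.71 and 4.95 ± 0.07 for Lats2-CKO high cholesterol, wild-type high cholesterol and wild-type normal diet. The normal-diet groups did not overlap, mutants being the lower, and groups in that contrast were apart in 1 direction or the other for 13.3% of genes. Arrays 1 and 2 of the Lats2-CKO normal-diet group lay under the background limit. The second Cd24a probe set did not show the same separation. Its means were 3.97, 3.80, 4.01 and 3.85 in the order Lats2-CKO high cholesterol, Lats2-CKO normal diet, wild-type high cholesterol and wild-type normal diet, close to the background limit.

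The high-cholesterol diet in Lats2-CKO livers gave the largest differences for the 3 genes above background, all towards higher levels, and none passed the threshold. Epcam was higher by 0.71 ± 0.25 (limma adjusted p = 0.235), or 1.64-fold, Sox9 by 0.60 ± 0.25 (limma adjusted p = 0.334) and Cd24a by 1.04 ± 0.39 (limma adjusted p = 0.268), each SE with 3 arrays against 3. The 95% intervals of the log2 difference were 0.16 to 1.26 for Epcam, 0.04 to 1.15 for Sox9 and 0.18 to 1.90 for Cd24a. Of the 9 genes 0 passed in limma, where 0.271% of all genes did, and 4 (Epcam, Sox9, Cd24a and, in the other direction, Afp) had an unadjusted p below 0.05, as did 13.4% of all genes and 24% of genes above the background limit. The median difference of the 9 genes was 0.04, against -0.02 over all genes. The second Cd24a probe set differed by 0.17 ± 0.15 (limma adjusted p = 0.676).

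Within the array sets the Lats2-CKO diet difference was 0.65 in the higher and 0.66 in the lower set for Epcam, 0.76 and 0.80 for Cd24a, and 0.92 and 0.19 for Sox9. Each of these rests on a lone array on 1 side. Cd24a gave 0.64 without Lats2-CKO high-cholesterol array 3, the array on which Sox9 and Epcam were also at their highest. Without Lats2-CKO normal-diet array 1, the lowest for Sox9, its difference was 0.38.

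In wild-type livers the same diet gave smaller fitted differences, whose intervals lay on both sides of 0. They were 0.33 ± 0.25 for Epcam, 0.15 ± 0.25 for Sox9 and 0.21 ± 0.39 for Cd24a (SE, 3 arrays against 3), with limma adjusted p of 0.690, 0.885 and 0.897. Of the 9 genes 0 passed by limma and 0 had an unadjusted p below 0.05, against 0% and 10.6% of all genes, and their median was 0.08 against -0.02. Without wild-type normal-diet array 3 the Epcam difference was 0.49 ± 0.27 (limma adjusted p = 0.387). Leaving out array 1 of the wild-type high-cholesterol group gave 0.06 and leaving out array 2 gave 0.61, and the higher and lower array sets gave 1.03 and -0.28. Cd24a changed sign, to -0.17, without wild-type high-cholesterol array 2, and Sox9, to -0.08, without array 3.

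Whether the diet acted differently in the genotypes was tested by the interaction, and none of the 3 genes passed. The interaction was 0.39 ± 0.35 for Epcam, 0.44 ± 0.36 for Sox9 and 0.83 ± 0.55 for Cd24a (limma adjusted p of 0.973, 0.964 and 0.945). Leaving out 1 array moved Epcam to 0.11 and 0.66 (arrays 2 and 1 of the wild-type high-cholesterol group), Sox9 to 0.23 (without Lats2-CKO normal-diet array 1) and 0.67 (without wild-type high-cholesterol array 3), and Cd24a to 0.42 (without Lats2-CKO high-cholesterol array 3) and 1.21 (without wild-type high-cholesterol array 2). The 95% intervals with all arrays, from -0.39 to 1.16, -0.34 to 1.23 and -0.39 to 2.04, include 0 as well as sizes above the Lats2-CKO diet difference. By limma 0 of the 9 genes passed and 0 had an unadjusted p below 0.05, where 0.00451% and 5.62% of all genes did.

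Over both genotypes together, the high-cholesterol diet went with higher fitted levels of the same 3 genes. Epcam was higher by 0.52 ± 0.18 (limma adjusted p = 0.159), Sox9 by 0.37 ± 0.18 (limma adjusted p = 0.302) and Cd24a by 0.63 ± 0.28 (limma adjusted p = 0.262), each 6 arrays against 6. Of the 9 genes 0 passed in limma and 2, Epcam and Cd24a, had an unadjusted p below 0.05, against 1.24% and 18% of all genes. Without wild-type normal-diet array 3 Epcam gave 0.60 ± 0.18 with a limma adjusted p of 0.073. Without wild-type high-cholesterol array 1 it gave 0.38, and the higher and lower array sets gave 0.84 and 0.19. Over 21 alternatives its limma adjusted p ran from 0.070 to 0.335. With the array set as a block and wild-type normal-diet array 3 left out, Cd24a gave 0.33 and Sox9 0.25, their lowest values. Epcam gave 0.68 there, its highest.

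**Figure D2:**
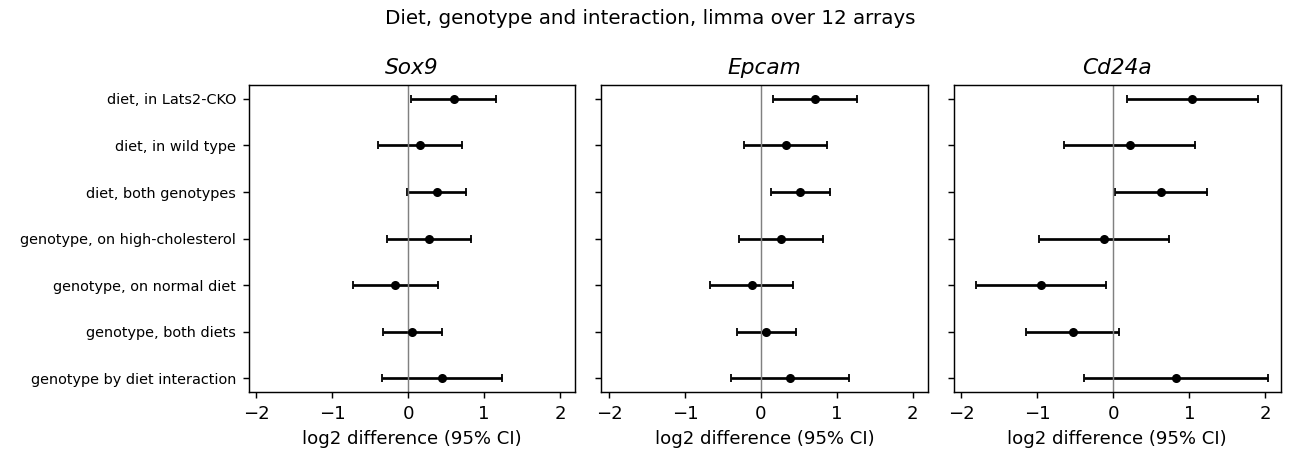
Log2 differences (points, x axis) with 95% confidence intervals from limma for Sox9, Epcam and Cd24a in 7 contrasts, high-cholesterol minus normal diet and Lats2-CKO minus wild type. For all 3 genes the interval of the diet difference in Lats2-CKO livers lies above 0 before adjustment over all genes, and the intervals in wild-type livers include 0.

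Over both diets the fitted genotype differences of Sox9 and Epcam were small, whereas those on each diet were imprecise. On high cholesterol, Lats2-CKO minus wild type was 0.27 ± 0.25 for Epcam, with an interval of -0.28 to 0.82. It was 0.28 ± 0.25 for Sox9, with an interval of -0.28 to 0.83, and -0.12 ± 0.39 for Cd24a. Single arrays carried these values, since Epcam gave -0.01 when array 2 of the wild-type high-cholesterol group was left out and 0.54 when array 1 was, Sox9 gave 0.15 without array 1 and 0.50 without array 3 of that group, and Cd24a gave -0.53 without Lats2-CKO high-cholesterol array 3 and 0.26 without wild-type high-cholesterol array 2. On normal diet it was -0.12 ± 0.25, -0.17 ± 0.25 and -0.95 ± 0.39 (limma adjusted p of 0.947, 0.921 and 0.488), SE, 3 arrays against 3. Epcam was 0.05 there without wild-type normal-diet array 3, and the sign of Sox9 also turned without Lats2-CKO normal-diet array 1. Over both diets Sox9 differed by 0.05 ± 0.18 and Epcam by 0.07 ± 0.18 with intervals of -0.34 to 0.45 and -0.31 to 0.46, and Cd24a by -0.54 ± 0.28. With 1 array left out, Epcam ran from -0.07 to 0.21 and Sox9 from -0.03 to 0.17. None of the 9 genes passed for genotype in limma, where 0% passed on high cholesterol, 0.0135% on normal diet and 0.00451% over both diets. An unadjusted p below 0.05 was reached by 0, 2 and 0 of the 9 (Cd24a and Afp on normal diet), against 2.93%, 8.99% and 5.97% of all genes. The normal-diet difference of Cd24a was -1.19 in the higher and -0.47 in the lower array set, and -0.06 ± 0.15 for its second probe set.

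Blood and immune cells also carry Cd24a, and their markers were read beside it. The mean of 5 B cell markers was 3.12 to 3.42 in Lats2-CKO high-cholesterol livers, 2.99 to 3.09 in Lats2-CKO normal-diet livers, 3.07 to 4.72 in wild-type high-cholesterol livers and 3.20 to 3.26 in wild-type normal-diet livers. Its highest array, wild-type high-cholesterol array 2, was also the highest for Cd24a. On it 4 of the 5 markers lay above the background limit, with Cd79b at 6.17, Ms4a1 at 4.88, Cd22 at 4.79 and Cd79a at 4.42, although 0 of the 5 had a mean over all 12 arrays above it. For neutrophil markers (0 of 8 with a 12-array mean above background), red cell precursor markers (0 of 4) and T cell markers (0 of 5) the list means were 2.96 to 3.64, 2.90 to 3.22 and 2.95 to 3.49 over the 12 arrays. Within them the neutrophil granule gene Ngp read 5.41 and 4.46 for the first 2 wild-type livers on high cholesterol, the T cell receptor subunit gene Cd3g 5.09 on array 1, and the red cell anion exchanger Slc4a1 4.07 on array 2. Other groups also had values above the background limit. Cd3g read 4.20 on Lats2-CKO high-cholesterol array 1 and 4.19 on wild-type normal-diet array 1. The neutrophil gene S100a9 read 4.14 on wild-type normal-diet array 2.

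The 10 macrophage markers, 9 of them above background, averaged 6.31 to 7.02 in Lats2-CKO high-cholesterol livers, 5.66 to 5.92 in Lats2-CKO normal-diet livers, 6.73 to 8.20 in wild-type high-cholesterol livers and 6.16 to 6.78 in wild-type normal-diet livers. Lats2-CKO normal-diet livers thus had the lowest group mean for the macrophage list, for the B cell list and for Cd24a, and also for the T cell list. They did not for the neutrophil list, at 3.11 against 3.09 in Lats2-CKO high-cholesterol livers. Nor did they for the red cell precursor list, at 3.05 against 2.98. The part of these cells in the Cd24a differences was not tested. Mesothelium and pancreas also contain cells that share Krt7, Krt19 or Epcam with bile ducts. Mesothelial markers (1 of 6 above background) and pancreatic markers (0 of 5) averaged 3.26 to 3.61 and 2.83 to 3.11 over all arrays. The pancreatic markers, Cpa1, Cel, Cela1, Ctrb1 and Ptf1a, hold no duct keratin and cannot speak to pancreatic duct cells.

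**Figure D3:**
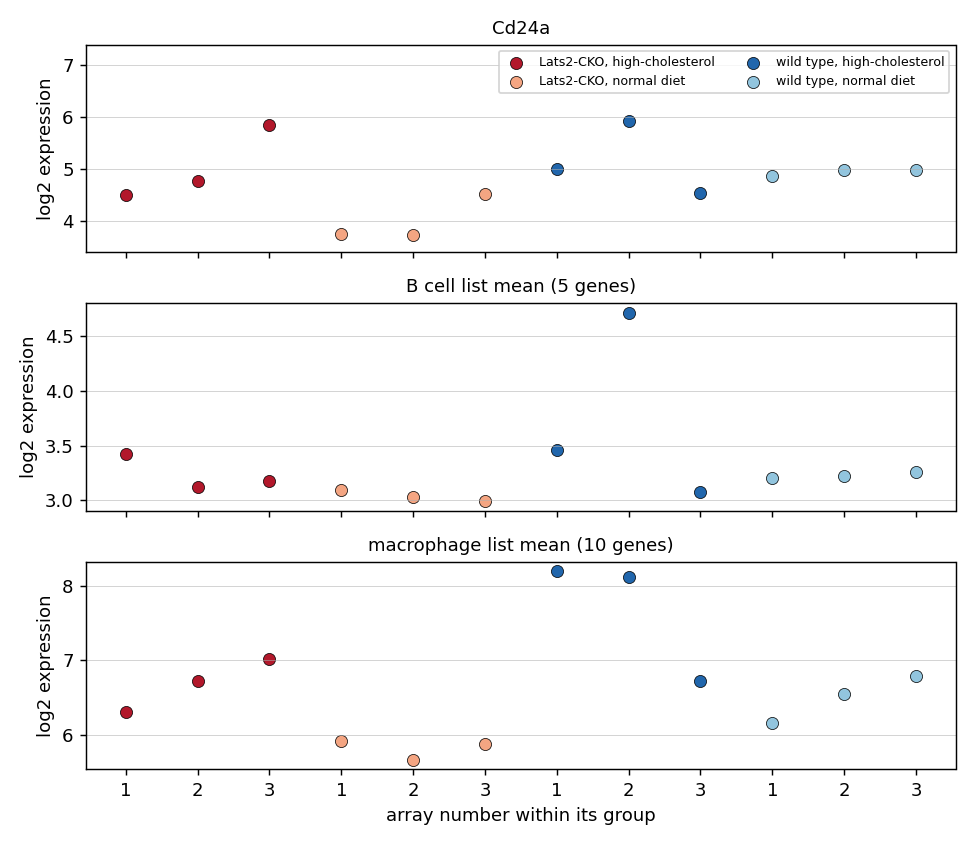
Log2 expression of Cd24a (top) and mean log2 expression of 5 B cell markers (middle) and 10 macrophage markers (bottom) on each array (x axis, number within its group, groups by colour from left to right). Wild-type high-cholesterol array 2 is the highest for Cd24a and for the B cell list, and the Lats2-CKO normal-diet arrays are low in all 3 panels.

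The genes whose pattern over the 12 arrays was most like that of each gene were sought among 9230 genes above background, as a description with no test. For Epcam they were Gata6os (Pearson r = 0.907, Spearman rho = 0.895), Adamts6 (r = 0.894) and Cib3 (r = 0.891). For Sox9 they were Pts (r = 0.849), Tmcc1 (r = 0.825) and Frat1 (r = 0.818). Cd24a was nearest to Smyd3 (r = 0.918), Adam10 (r = 0.902) and Mbtps1 (r = 0.896). The 3 genes had no partner in common, and these arrays share groups and array sets.

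Other biliary genes gave a mixed picture under the diet, with Krt23 and Pkhd1 on the higher side and Krt18 and Slc10a2 on the lower. The list held 24 measured genes, of which 10 had means above background. In Lats2-CKO livers 0 of the 24 passed in limma, 7 were higher and 2 lower at an unadjusted p below 0.05, where 6.21% and 7.24% of all genes were. The list median was 0.21 and that of all genes -0.02. In wild-type livers 0 passed and 0 had an unadjusted p below 0.05 (4.03% of genes higher, 6.56% lower), and the medians were 0.02 and -0.02. Fitted values were higher for 17 and lower for 7 genes in Lats2-CKO livers, and for 13 and 11 in wild type. Slc10a2 averaged 5.74 on high cholesterol against 7.17 on normal diet in Lats2-CKO livers, and 5.69 against 6.85 in wild type. Its arrays overlapped in both genotypes, and it was named after its values were seen.

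Krt23, a keratin that injured mouse livers induce in duct cells and hepatocytes, read 5.25, 4.78 and 4.99 in Lats2-CKO high-cholesterol livers, against 3.15, 3.39 and 3.44 in Lats2-CKO normal-diet livers. In wild type it read 5.48, 4.57 and 4.45 on high cholesterol, against 3.45, 3.23 and 6.27 on normal diet. Array 3 of the last group was the highest of all 12, and the rest separated by diet in both genotypes. With every array the diet difference was 1.68 ± 0.63 in Lats2-CKO and 0.52 ± 0.63 in wild-type livers (limma adjusted p of 0.275 and 0.827). Without that array the difference was 1.68 ± 0.24 in Lats2-CKO and 1.5 ± 0.27 in wild-type livers (limma adjusted p of 0.00787 and 0.0243). Krt23 was among the values that set the array apart, so fits without it are no independent support. Over both genotypes the difference was 1.10 ± 0.45 with every array and 1.59 ± 0.18 without that one (limma adjusted p of 0.232 and 0.00115). Apart from that array, all normal-diet values lay under the background limit, so the size of these differences is uncertain. The high-cholesterol means were 1.12 above the limit itself in Lats2-CKO and 0.95 above it in wild type. Krt23 was singled out after its values were seen.

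Pkhd1, the ciliary protein fibrocystin of duct cells, read 4.80, 4.99 and 5.39 in Lats2-CKO high-cholesterol livers, against 4.47, 4.30 and 4.18 in Lats2-CKO normal-diet livers, with no overlap. The difference was 0.74 ± 0.20 (limma adjusted p = 0.134), and in wild type 0.32 ± 0.20 (limma adjusted p = 0.613), which became 0.51 ± 0.19 without wild-type normal-diet array 3 and 0.13 without array 1. Over both genotypes it was 0.53 ± 0.14 (limma adjusted p = 0.089), and 0.63 ± 0.13 without wild-type normal-diet array 3 (limma adjusted p = 0.0169). The epithelial cadherin Cdh1 (0.88 ± 0.34) and the stem cell surface protein Prom1 (0.56 ± 0.19) also had higher fitted values in Lats2-CKO livers on the diet (limma adjusted p of 0.288 and 0.23), Prom1 near background. With the mean of its probe sets Cdh1 gave 0.53. Pkhd1, Cdh1 and Prom1 were likewise singled out after their values were seen.

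Krt18, a keratin of hepatocytes and ducts alike, went the other way, at 8.42, 8.98 and 8.77 in Lats2-CKO high-cholesterol livers, against 9.20, 10.46 and 10.06 in Lats2-CKO normal-diet livers, with no overlap. The difference was -1.18 ± 0.29 (limma adjusted p = 0.110), and in limma it passed when Lats2-CKO normal-diet array 1 was left out, at -1.54 ± 0.24 (adjusted p = 0.0315). Over both genotypes Krt18 gave -0.78 ± 0.21 (limma adjusted p = 0.089), and -0.90 ± 0.20 without wild-type normal-diet array 3 (limma adjusted p = 0.025). Aqp1, a water channel of cholangiocytes and also of endothelium, differed between the genotypes by -0.77 ± 0.13 over both diets (limma adjusted p = 0.325). It read 6.34 to 7.32 on the 6 Lats2-CKO arrays and 7.09 to 7.85 on the 6 wild-type arrays. The 5 endothelial markers, all above background, had list means of 7.14 to 7.65 on the Lats2-CKO arrays and 7.77 to 7.95 on the wild-type arrays, and their part in the Aqp1 difference was not tested.

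**Figure D4:**
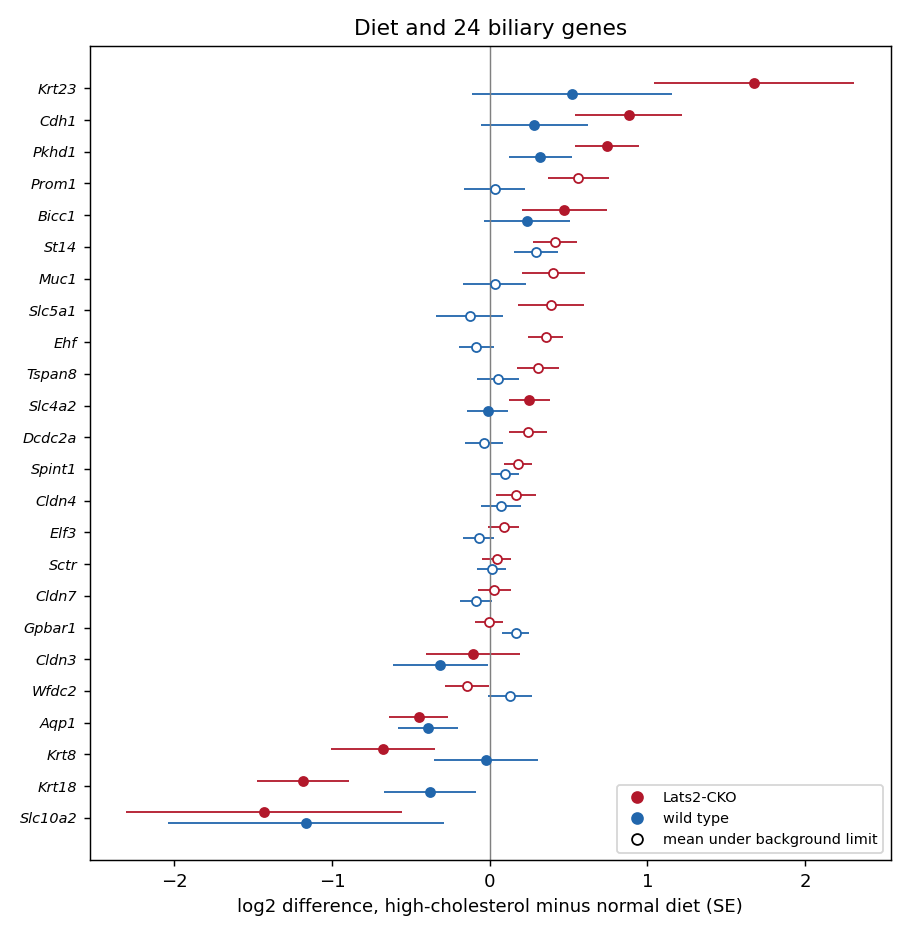
Log2 difference between high-cholesterol and normal diet (x axis, points with SE) for 24 biliary genes in Lats2-CKO livers (red, above) and wild-type livers (blue, below), with all 12 arrays fitted. Krt23, Cdh1 and Pkhd1 have the highest fitted values in Lats2-CKO livers, and Slc10a2 and Krt18 the lowest. Open points mark genes with means under the background limit.

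Of the signals that guide biliary fate, Notch1 passed the threshold upwards, and others had lower fitted values on the diet. Notch receptors steer fetal precursors to the biliary lineage, and Sox9 and Hes1 are among their known targets. Notch1 read 6.43, 6.27 and 6.84 in Lats2-CKO livers given high cholesterol and 5.76, 5.60 and 5.53 in those given normal diet. Wild-type livers read 6.28, 6.07 and 6.16 with high cholesterol and 6.11, 6.04 and 6.25 with normal diet. The mutant groups did not overlap and the wild-type groups did. In Lats2-CKO livers Notch1 rose with the diet by 0.88 ± 0.14 (limma adjusted p = 0.0332), in which direction 0.126% of all genes passed. It was the only one of 20 measured genes of this list past the threshold in any contrast with all arrays. In wild type it differed by 0.04 ± 0.14 (limma adjusted p = 0.957). The interaction, 0.85 ± 0.20, did not pass (limma adjusted p = 0.710). Without wild-type normal-diet array 3 Notch1 also passed over both genotypes, at 0.49 ± 0.11 against 0.46 ± 0.10 with every array (limma adjusted p of 0.0224 and 0.051). Tgfbr1, a receptor of TGF-beta, passed without it in wild type, at 0.64 ± 0.13 against 0.46 ± 0.16 with every array (limma adjusted p of 0.0342 and 0.365). Over both genotypes Tgfbr1 gave 0.34 ± 0.09 without it, against 0.25 ± 0.11 (limma adjusted p of 0.042 and 0.268).

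The Notch1 call was lost in 9 of 22 alternatives, at adjusted p of up to 0.111 by limma, among them the fit without any 1 of the 3 Lats2-CKO high-cholesterol arrays. Its size over the 22 stayed between 0.72 and 1.0. Endothelial cells and macrophages also use Notch1. The endothelial list mean was 7.14 to 7.65 in Lats2-CKO high-cholesterol livers and 7.19 to 7.51 in Lats2-CKO normal-diet livers, the macrophage list is given above, and their part in the Notch1 difference was not tested. Hes1, a Notch target, averaged 4.68, 4.57, 4.61 and 4.80 in Lats2-CKO high-cholesterol, Lats2-CKO normal-diet, wild-type high-cholesterol and wild-type normal-diet livers. In the diet contrasts of single genotypes the list medians were 0.06 for Lats2-CKO and 0.04 for wild type, against -0.02 over all genes in both. In Lats2-CKO livers the fitted values were higher for 14 genes of this list and lower for 6. Among the lower, Tnfrsf12a averaged 5.53 on high cholesterol against 6.96 on normal diet, and Onecut1 7.94 against 9.30. The arrays of both overlapped, and both were named after their values were seen.

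Fetal genes beside the members were mostly near background as well. Of 18 measured, 4 had means above the limit: the imprinted gene Peg3, the lipoprotein lipase Lpl, the glycolytic enzyme Pkm and the transcription factor Tbx3. The other 14, among them Dlk1, Lin28b and Igf2bp3, lay under it. Tbx3, which keeps hepatoblasts growing in the mouse embryo and is also a Wnt target around the central vein, was the 1 list gene that passed. It read 5.84, 4.73 and 5.33 in mutant livers under high cholesterol, against 6.22, 5.30 and 6.77 in mutants under normal diet. In wild type the values were 5.59, 5.64 and 4.98 under high cholesterol, against 7.78, 7.51 and 6.88 under normal diet.

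The diets overlapped in the mutants, and the wild-type normal-diet arrays were the highest 3 of the 12. Over both genotypes Tbx3 fell by 1.39 on the log2 scale with the diet (SE 0.28, 6 arrays against 6, limma adjusted p = 0.0437), as 0.87% of all genes did past the threshold. In Lats2-CKO livers the difference was -0.80 ± 0.39 and in wild-type livers -1.98 ± 0.39 (limma adjusted p of 0.414 and 0.307). The wild-type value was -2.24 ± 0.42 without array 3 of the normal-diet group and passed (limma adjusted p = 0.027). The call over both genotypes was lost in 12 of 21 alternatives with the size between -1.61 and -1.22, including 10 of the 12 that left out 1 array. Lpl, expressed in the fetal liver and in macrophages, was higher by 2.08 ± 0.47 over both genotypes (limma adjusted p = 0.059), and by 2.49 ± 0.34 without wild-type normal-diet array 3 (limma adjusted p = 0.00304). Without that array Lpl also passed in each genotype, at 2.38 ± 0.45 in Lats2-CKO and 2.61 ± 0.51 in wild-type livers (limma adjusted p of 0.031 and 0.032), against 2.38 ± 0.66 and 1.78 ± 0.66 with every array (limma adjusted p of 0.142 and 0.393). As for Krt23, the fits without that array are no independent support. With the mean of its probe sets and every array, Lpl gave 1.28 over both genotypes, 1.34 in Lats2-CKO and 1.22 in wild-type livers. The macrophage list, whose ranges are given above, also averaged higher on the diet, and its part in the Lpl difference was not tested. Over the fetal list the median was 0.03 in Lats2-CKO livers, 0.03 in wild-type livers and 0.03 over both genotypes, against -0.02 for all genes in each.

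Of the factors that switch fetal genes, none passed the threshold with every array fitted. All 9 measured were above background, and by limma 0 passed in each of the 7 contrasts. At most 1 of the 9 had an unadjusted p below 0.05 in a contrast, as was so for Foxa3 in the diet contrast over both genotypes, where 18% of all genes did. Zbtb20, which silences Afp after birth in mice, read 7.96 to 8.66 over the 12 arrays. Its genotype difference over both diets was 0.24 ± 0.10 (limma adjusted p = 0.830). Zhx2, a second postnatal repressor of Afp and Gpc3 in mice, averaged 6.59, 6.63, 6.68 and 6.78 in Lats2-CKO high-cholesterol, Lats2-CKO normal-diet, wild-type high-cholesterol and wild-type normal-diet livers. Foxa3, a hepatocyte factor, differed by -0.74 ± 0.31 with the diet over both genotypes (limma adjusted p = 0.247). It passed in 1 of 21 alternatives, with the array set as a block and wild-type normal-diet array 3 left out, at -1.29 (limma adjusted p = 0.0186), where 2 of the 9 factors passed.

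For the pathway of Igf2, the adult ligand, the receptors and the binding proteins were measured by 14 genes, 11 of them above background, and 0 passed by limma in each contrast with every array. At most 3 of the 14 had an unadjusted p below 0.05, in the diet contrast over both genotypes, where 18% of all genes did. The insulin receptor gene Insr gave 0.38 ± 0.13 there (limma adjusted p = 0.152) and passed without wild-type normal-diet array 3, at 0.49 ± 0.10 (limma adjusted p = 0.0138). Igf1, which takes over from Igf2 as the circulating growth factor after birth, read 10.28 to 10.67 on all 12 arrays. Igfbp7, a binding protein of liver endothelium, differed by -0.51 ± 0.13 between the genotypes over both diets (limma adjusted p = 0.581), at 8.70 to 9.35 on the Lats2-CKO arrays and 9.31 to 9.96 on the wild-type arrays, and the part of the endothelial markers given with Aqp1 was not tested. Irs1, a docking protein of the insulin and IGF1 receptors, differed by -1.01 ± 0.30 between the genotypes on normal diet (limma adjusted p = 0.296). Taken as the mean of its probe sets, Irs1 gave -0.52. The receptor gene Igf2r, which clears IGF2 protein, was higher by 0.29 ± 0.13 with the diet in Lats2-CKO livers (limma adjusted p = 0.349) and was named after its value was seen.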

How the data were processed

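The authors deposited log2 expression per probe set for 12 arrays, and the submitters' processing notes name RMA and Partek 6.6. The log2 scale was taken from the values, which ran from 1.94 to 14.2. RMA settings, probe filters and genome build are not given in the sources used here. Total RNA (250 ng) went into each labelling, per the labels. Of 41345 probe sets, 23521 had 1 gene symbol, 1814 several and 16010 none in the platform annotation. Symbols were updated by gene identifier against RefSeq (GRCm38.p6, names only), and the probe set with the highest mean stood for each of 22180 genes.

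Differences came from limma 3.58.1 under R 4.3.3 (functions lmFit and eBayes), with 4 group means over all 12 arrays, with Benjamini-Hochberg adjustment over all genes and a threshold of 0.05. Errors of differences are SE from that fit, and errors of levels are SD over 3 arrays. The fit was tested on simulated data with independent noise on each array. They held no array sets and no outlying array, so that test cannot speak to these features. Members, lists and motifs were chosen with earlier results or the sequences known. From each wider list, genes past the threshold were named (at most 6) or else the 2 with the smallest p. The number of arrays limits the precision. Other list genes named in the text (Hes1, Zhx2, Igf1, Lpl, Peg3, Pkm, Dlk1, Lin28b and Igf2bp3 among them) were picked for their role with their values known. Alternatives were the samples fitted, replicate and array-set blocks, prior, array weights, a dim filter, probe sets, scaling and each array left out.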

Additional observations from a re-analysis of the deposited data

How the results depend on the processing

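The count of members past the threshold was 0 under each of the 22 alternatives run, in every contrast they apply to (151 counts). With the replicate block it was 0 as well, and Epcam, Sox9 and Cd24a gave 0.71, 0.60 and 1.04 in the Lats2-CKO diet contrast. The labels do not say that a number marks a shared batch, and the numbers were not taken as a pairing because the deviations of same-numbered arrays from group means, at correlations of 0.0024 to 0.176, exceeded 0.1 in 7 of 18 pairs, not all. All 18 were positive, and the numbers go with the array sets. Arrays correlated best with their own number in 9 of 12 cases, as a hint from the data only, and the block moved the genes called for diet in Lats2-CKO livers to 58, against 60. The 21 differences of the 3 genes above background had 453 alternative values, 435 with the sign of the reported value, and 13 of the 21 kept it in all. The limit at the median of all probe sets put 5 members near background in place of 6, without Krt19, and the dim filter kept 5 of the 9. Counts of all genes called for diet depended on single arrays, from 5 to 468 in Lats2-CKO livers (60 with all), 0 to 516 in wild-type livers (0) and 6 to 1605 over both genotypes (274) when 1 array was left out. The highest of each came without wild-type normal-diet array 3. With other settings the Lats2-CKO count reached 573. The number of biliary genes called for diet over both genotypes was 0 to 3, of fetal genes 0 to 3, of biliary fate genes 0 to 2, of fetal regulators 0 to 2 and of IGF genes 0 to 1. For genotype on normal diet 1 to 17 genes were called (3), on high cholesterol 0 to 22 (0) and over both diets 1 to 8 (1). The cause of these shifts was not tested.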
